A study of Homo sapiens with 21 samples.

Results

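The genes described are 59 components of the human DNA replication and nucleotide synthesis machinery, listed by symbol in 11 subcomplexes from the origin recognition complex to the enzymes that make deoxynucleotides. All 59 were measured among the 12165 genes tested on Affymetrix HT human genome arrays, each through its probe set with the highest mean log2 intensity over all arrays. Total RNA came from 3 human acute myeloid leukaemia lines, MOLM-14, U937 and HL-60, infected with 1 of 2 short hairpin RNAs against SYK (shSYK_1 or shSYK_2) or with a hairpin against luciferase (shLuc) as control. Every culture, the shLuc controls included, was selected with 1 µg/ml puromycin from 48 h after infection and gave RNA at day 5, so each array reads a selected pool of cells. The 9 groups held 2 arrays with shSYK_1, 2 with shSYK_2 and 3 with shLuc in each line, 21 arrays in all. Replicates were separate transductions per the labels' protocol, and the tests below rest on the scatter of such transductions. SYK is a cytoplasmic tyrosine kinase of immune receptor signalling. MOLM-14 and U937 have monocytic features, MOLM-14 with an activated FLT3 receptor, and HL-60 is a promyelocytic line.

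Replication starts at origins bound by the origin recognition complex (ORC). In G1 phase ORC, CDC6 and CDT1 load the MCM ring, the motor of the replicative helicase, and in S phase CDC45 and the GINS complex join MCM to form the active helicase. RPA coats the single strands, RFC loads the PCNA clamp, the polymerases copy the template, and ribonucleotide reductase, thymidylate synthase and thymidine kinase supply deoxynucleotides. Many of these genes are transcribed under E2F factors as cells enter S phase, and in leukaemia cultures their RNA is commonly read as a mark of proliferation. In RNA of a whole culture, a smaller share of cells in S phase and less of a transcript in each cell cannot be told apart.

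The hairpins differ in the stretch of the SYK transcript they target, and both targets are given because the responses to them differed in U937.

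shSYK_1: gcagcagaacagacatgtcaa

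shSYK_2: gcaggccatcatcagtcagaa

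SYK, the target, was low wherever a SYK hairpin was used. Its log2 intensity in MOLM-14 was 6.16 and 6.16 with shSYK_1 and 5.62 and 5.35 with shSYK_2, against 8.49, 8.42 and 8.44 with shLuc. In U937 it was 7.02 and 6.97 with shSYK_1 and 6.56 and 6.55 with shSYK_2, against 8.66, 8.70 and 8.70 with shLuc. In HL-60 it was 7.04 and 7.001 with shSYK_1 and 6.66 and 6.90 with shSYK_2, against 8.91, 9.05 and 9.004 with shLuc. The remaining SYK level therefore lay between 12.9% of shLuc (MOLM-14 shSYK_2) and 31.1% (U937 shSYK_1), and no hairpin array overlapped shLuc. The log2 difference in SYK, shSYK_2 minus shSYK_1, was -0.67 in MOLM-14 and -0.44 in U937 (limma adjusted p = 2.62e-05 and 0.00147). In HL-60 it was -0.24, which was not called (limma adjusted p = 0.0716). The SYK response averaged over both hairpins was -0.72 for MOLM-14 minus U937 (limma adjusted p = 0.0003), and 0.18 for U937 minus HL-60, which was not called (limma adjusted p = 0.313).

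For HL-60 shSYK_2 replicate 1 the labels conflict, since its title and treatment name shSYK_2 and its source name shSYK_1. It was kept with shSYK_2 here, and the HL-60 shSYK_2 counts are also given without it. Its upper quartile of intensity was 122.3, against 134.5 to 139.8 on the other 20 arrays. Its SYK level, 6.66, was the lowest of the HL-60 arrays. For PARPBP, UNG and TYMS it read 4.06, 9.47 and 11.45, against 4.08, 9.53 and 11.48 on the other shSYK_2 array. The HL-60 shSYK_1 arrays read 5.26 and 5.24 for PARPBP, 8.87 and 8.79 for UNG, and 11.01 and 10.95 for TYMS. For RFC5 and DTL it read 7.65 and 8.73, against 8.16 and 9.12 on the other shSYK_2 array. There the shSYK_1 arrays were nearer, at 7.48 and 7.49 for RFC5 and 8.70 and 8.73 for DTL. Which hairpin it carried was not tested.

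Promoter sequences of 53 of the 59 genes were at hand from RefSeq (GRCh38.p14), as 300 bases from 250 before to 50 after the transcription start. They were searched on both strands for 4 forms of the E2F site, TTTCCCGC, TTTCGCGC, TTTGCCGC and TTTGGCGC. At least 1 form was present in 21 of the 53 (39.6%), in 479 of 9711 promoters of the genes tested (4.93%) and in 908 of 27305 promoters of the same length in all (3.33%). In 18 of the 21 a match lay between 60 bases before and 20 bases after the start. The letters CCAAT were present in 29 of the 53 (54.7%), in 37.4% of promoters of the genes tested and in 35.7% of all promoters. TTTGAA, the CHR element of later cell cycle genes, was present in 3 (5.66%), in 10.9% and in 15.4%. A match describes the letters and is not a measured binding site.

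Windows from 110 bases before to 20 bases after the start are shown for 5 genes that recur in the results and hold a match, in capitals, followed by RFC5 and PARPBP, which showed large changes and hold none in the window. In the MCM2 window, 2 matches on opposite strands overlap.

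CDC6 (chr17:40287769-40287898, plus strand): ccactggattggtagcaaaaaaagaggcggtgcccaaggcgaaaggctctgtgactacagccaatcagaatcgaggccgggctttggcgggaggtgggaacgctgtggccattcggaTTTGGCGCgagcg

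MCM2 (chr3:127598301-127598430, plus strand): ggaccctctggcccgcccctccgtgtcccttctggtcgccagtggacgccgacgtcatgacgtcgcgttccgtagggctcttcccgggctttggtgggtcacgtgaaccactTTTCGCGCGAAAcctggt

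GINS1 (chr20:25407563-25407692, plus strand): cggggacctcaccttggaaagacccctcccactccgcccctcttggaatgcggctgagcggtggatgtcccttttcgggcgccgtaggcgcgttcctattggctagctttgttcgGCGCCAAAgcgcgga

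DTL (chr1:212035638-212035767, plus strand): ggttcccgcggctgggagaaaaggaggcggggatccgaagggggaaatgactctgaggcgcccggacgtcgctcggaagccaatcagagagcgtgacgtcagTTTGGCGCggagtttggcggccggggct

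TYMS (chr18:657543-657672, plus strand): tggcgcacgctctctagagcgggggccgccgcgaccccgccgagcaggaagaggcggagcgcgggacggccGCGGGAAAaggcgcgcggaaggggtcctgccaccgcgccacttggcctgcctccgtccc

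RFC5 (chr12:118016593-118016722, plus strand): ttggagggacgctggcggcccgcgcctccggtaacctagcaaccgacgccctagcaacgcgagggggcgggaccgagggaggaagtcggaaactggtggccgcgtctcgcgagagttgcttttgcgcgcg

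PARPBP (chr12:102120073-102120202, plus strand): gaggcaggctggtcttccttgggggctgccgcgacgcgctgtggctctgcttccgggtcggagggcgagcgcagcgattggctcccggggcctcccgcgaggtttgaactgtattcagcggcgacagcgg

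Averaged over the 3 lines and both hairpins, 56 of the 59 genes were lower with SYK hairpins than with shLuc, none was higher and 3 were not called at a limma adjusted p below 0.05. Of all genes tested, 17.0% were lower and 17.1% higher by the same rule. The median change of the 59 was -0.34 on the log2 scale, and that of all genes was 0.005. The shift was modest per gene: 15 of the 56 fell by at least 0.5 on the log2 scale. With shSYK_1 alone, 44 were lower (17.4% of all genes) and 3 higher (18.2%), with a median of -0.26. With shSYK_2 alone, 56 were lower (14.7%) and none was higher, with a median of -0.44. The 3 genes higher with shSYK_1 were GMNN (0.13), RRM2 (0.14) and TK1 (0.18), but a second, dimmer probe set of RRM2 was lower by the same rule (-1.05), so its direction is uncertain. The 3 genes not called in the average of both hairpins were ORC4 (-0.07), the primase subunit PRIM2 (-0.18) and the salvage enzyme TK1 (-0.11).

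The size of the shift differed between lines and, in U937, between hairpins. In MOLM-14, 48 genes were lower with shSYK_1 (12.5% of all genes) and 46 with shSYK_2 (8.12%), with medians of -0.46 and -0.40. In U937, 13 were lower with shSYK_1 (8.37% of all genes), 3 were higher (8.53%), and 55 were lower with shSYK_2 (7.92%), with medians of -0.06 and -0.83. In HL-60, 30 were lower with shSYK_1 (11.8% of all genes) and 22 with shSYK_2 (11.4%), with medians of -0.26 and -0.13. Most of the genes were thus lower with each hairpin in MOLM-14, whereas in U937 most were lower with shSYK_2 and few with shSYK_1. The median of all genes lay between -0.01 and 0.02 in each of these 6 comparisons, and the hairpins of a line share its shLuc arrays.

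**Figure D1:**
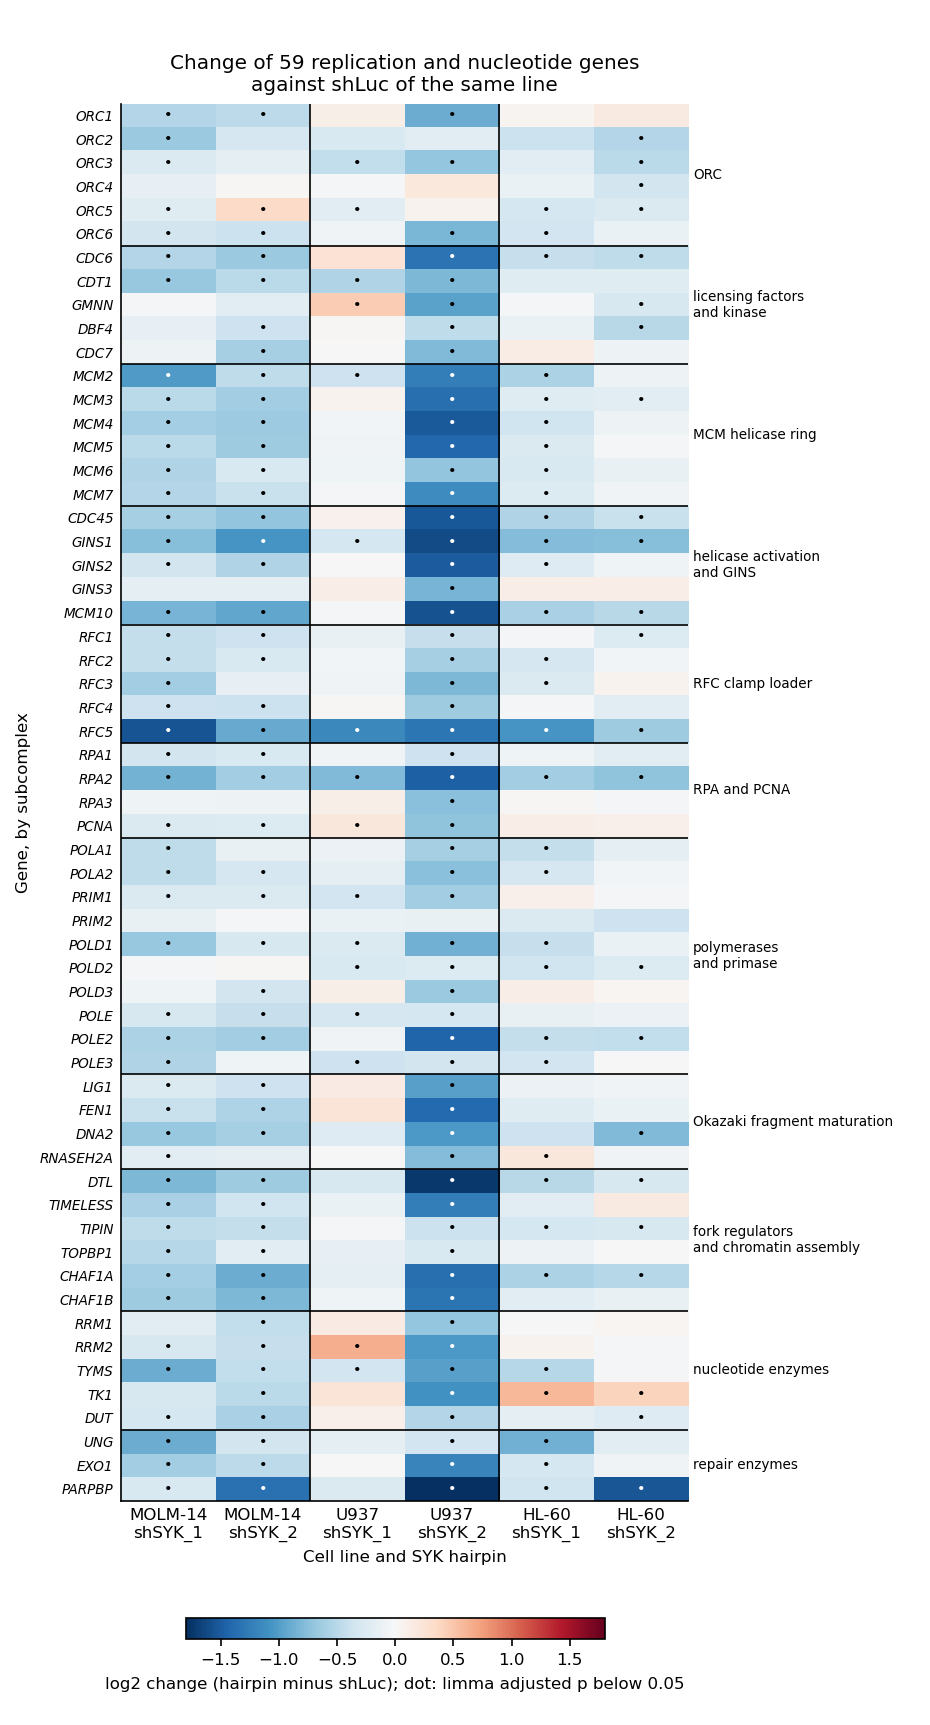
Log2 change of each of the 59 genes (rows, by subcomplex) in the 6 comparisons of a SYK hairpin with shLuc of the same line (columns), blue for lower and red for higher, with a dot where the limma adjusted p was below 0.05. The U937 shSYK_2 column is blue for 57 genes, with 55 called, and the U937 shSYK_1 column holds 13 calls lower and 3 higher.

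Each array was also described by the mean log2 intensity of the 59 genes. In MOLM-14 it was 7.88 and 7.91 with shSYK_1 and 7.94 and 7.92 with shSYK_2, against 8.39, 8.35 and 8.34 with shLuc. In U937 it was 7.84 and 7.81 with shSYK_1 and 7.06 and 7.02 with shSYK_2, against 7.94, 7.94 and 7.89 with shLuc. In HL-60 it was 8.19 and 8.18 with shSYK_1 and 8.14 and 8.29 with shSYK_2, against 8.43, 8.44 and 8.42 with shLuc. In all 3 lines every SYK hairpin array lay below every shLuc array, and the narrowest gap was that of U937 shSYK_1. The SD between replicate arrays, pooled over the groups, was 0.0379.

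Some of these levels were low. The median linear intensity of all probe sets was 18.4 to 20.6 per array, and the table gives no detection calls. In U937 with shSYK_2, 6 of the 59 genes had a mean intensity no higher than 20.6, CDC6 (18.45), MCM10 (15.4), DNA2 (17.4), CHAF1B (19.7), TK1 (15.1) and PARPBP (11.9). PARPBP was also that dim with shSYK_2 in MOLM-14 (18.7) and HL-60 (16.8), and no gene was in the other 6 groups. Whether these levels exceed background is not known, so the size of each such change is uncertain.

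**Figure D2:**
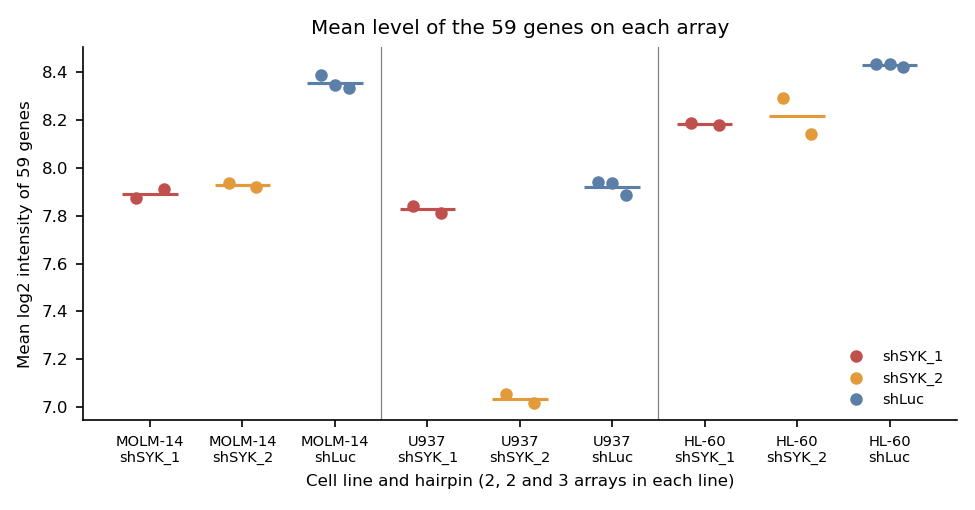
Mean log2 intensity of the 59 genes on each of the 21 arrays (points) and its group mean (bars) by cell line and hairpin. The U937 shSYK_2 arrays, at 7.06 and 7.02, are the lowest of all, and HL-60 shSYK_2 spans 8.14 to 8.29.

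Without replicate 1 of HL-60 shSYK_2, the array with conflicting labels, 9 genes were lower in HL-60 with shSYK_2 in place of 22, all 9 among the 22, with a median of -0.09, and 24 in place of 29 were lower in HL-60 with both hairpins. The 1 gene called higher there, TK1, was no longer called, so that 14 of 23 calls were lost. Beside TK1 they were ORC2, ORC4, ORC5, CDC6, GMNN, MCM3, RFC1, RFC5, POLE2, DNA2, DTL, TIPIN and DUT. Only 1 array was left in that group, which widens the standard error. The shares of all genes called lower are not given for the fits of this paragraph, so their counts cannot be set against all genes. Some of these changes shrank, as for ORC2 (-0.53 to -0.11) and DNA2 (-0.79 to -0.35). Others nearly kept their size without that array, as for TK1 (0.40 to 0.41), TIPIN (-0.29 to -0.27) and DUT (-0.23 to -0.21). Placed in shSYK_1 as its source name has it, it left 5 genes lower with shSYK_2 and 17 in place of 29 lower with both hairpins. In a fit of the HL-60 arrays alone, 18 genes were lower with shSYK_1, 10 with shSYK_2 and 18 with both. In the average over lines and hairpins 56 genes were lower without it, with a median of -0.32. In U937 with shSYK_1 the count was 8 without replicate 2 of that group, in place of 13.

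Myeloid markers moved beside these changes. Over the 3 lines and both hairpins, 4 of 8 rose and 2 fell, where 17.1% of all genes were higher and 17.0% lower. The largest rises were those of the integrin subunit ITGAM (0.97) and the monocyte receptor CD14 (0.84). The means of ITGAM with shSYK_1, shSYK_2 and shLuc were 7.67, 6.37 and 6.55 in MOLM-14. They were 7.55, 5.68 and 5.34 in U937 and 7.97, 6.57 and 6.10 in HL-60. ITGAM was thus highest with shSYK_1 in every line, and its shSYK_2 mean in MOLM-14 was below shLuc. CD14 was above a log2 intensity of 4 in HL-60 alone. There CD14 averaged 9.49 ± 0.02 with shSYK_1 and 8.39 ± 0.17 with shSYK_2, against 6.55 ± 0.06 with shLuc (SD; n = 2, 2 and 3), while the means were 3.25, 3.10 and 3.08 in MOLM-14 and 2.88, 2.71 and 2.75 in U937 in the same order. Among the 8 markers, the genes that fell were the granule enzyme MPO (-0.49) and the factor CEBPA (-0.16). The mean of the 8 markers ran from 8.56 to 8.58 with shSYK_1 and 8.29 to 8.37 with shSYK_2 in HL-60, against 7.92 to 7.98 with shLuc. In U937 it ran from 6.46 to 6.47 with shSYK_1 and 6.32 to 6.36 with shSYK_2, against 6.08 to 6.24 with shLuc. In MOLM-14 it ran from 7.01 to 7.05 with shSYK_1 and 6.40 to 6.47 with shSYK_2, against 6.76 to 6.86 with shLuc. The myeloid mean was thus highest with shSYK_1 in every line, and its part in the changes of the replication genes was not tested. Of the markers of other cell types, all 6 erythroid, all 6 megakaryocyte, 7 of 8 T and NK, 4 of 5 B and 8 of 9 epithelial or stromal genes had a mean log2 intensity below 6 in every group. The exceptions were NKG7 (6.78 to 10.35), BLNK (2.81 to 6.51) and KRT18 (3.05 to 7.58). Of the 8 myeloid markers, SPI1 (4.15 to 5.16) was also below 6 in every group, and MPO averaged 3.385 in U937 with shLuc.

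The origin recognition complex, which marks origins, is considered first. Averaged over lines and hairpins, 5 of its 6 subunits fell and the median was -0.30. ORC2 had the largest change. It read 6.03 and 6.08 with shSYK_1 and 6.43 and 6.38 with shSYK_2 in MOLM-14, against 6.73, 6.71 and 6.70 with shLuc. In U937 it read 6.60 and 6.42 with shSYK_1 and 6.65 and 6.56 with shSYK_2, against 6.70, 6.91 and 6.76 with shLuc. In HL-60 it read 6.60 and 6.60 with shSYK_1 and 6.03 and 6.87 with shSYK_2, against 6.96, 7.03 and 6.96 with shLuc. Every SYK hairpin array of ORC2 was below every shLuc array of its line, but the HL-60 shSYK_2 arrays stood far apart, and replicate 1 was the low one. The average change was -0.39 ± 0.07 (SE; limma adjusted p = 0.000493), and among the 6 comparisons ORC2 was called in MOLM-14 with shSYK_1 and HL-60 with shSYK_2. Without replicate 1 the HL-60 shSYK_2 change of ORC2 was -0.11 in place of -0.53 and was not called. ORC1 and ORC6 fell in U937 with shSYK_2 by 0.89 and 0.83, while their changes with shSYK_1, 0.10 and -0.06, were not called. ORC5 went against the rest in MOLM-14 with shSYK_2, where it rose by 0.35 (limma adjusted p = 0.00174), and fell by 0.22 there with shSYK_1.

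The licensing factors load MCM, geminin (GMNN) blocks CDT1 after origins have fired, and DBF4 with CDC7 forms the kinase that triggers firing. All 5 fell in the average, with a median of -0.26, and all 5 fell in U937 with shSYK_2. CDC6 read 6.63 and 6.76 with shSYK_1 and 6.57 and 6.55 with shSYK_2 in MOLM-14, against 7.34, 7.14 and 7.21 with shLuc. Values in U937 were 5.84 and 5.74 with shSYK_1 and 4.32 and 4.09 with shSYK_2, against 5.41, 5.69 and 5.49 with shLuc. Values in HL-60 were 6.91 and 6.69 with shSYK_1 and 6.65 and 6.89 with shSYK_2, against 7.09, 7.36 and 7.20 with shLuc. The U937 arrays separated by hairpin, with both shSYK_1 arrays above and both shSYK_2 arrays below all shLuc arrays. With U937 shSYK_2 the log2 change of CDC6 was -1.32 ± 0.11 (SE; limma adjusted p = 3.49e-07), to a level no brighter than the median probe set, and the change of 0.26 with shSYK_1 was not called (limma adjusted p = 0.133).

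Geminin was also split by hairpin in U937. There GMNN read 9.10 and 9.06 with shSYK_1 and 7.73 and 7.59 with shSYK_2, against 8.67, 8.68 and 8.51 with shLuc. It rose by 0.46 with shSYK_1 (limma adjusted p = 0.000192) and fell by 0.96 with shSYK_2 (limma adjusted p = 6.94e-08). In MOLM-14 it read 9.92 and 9.87 with shSYK_1 and 9.72 and 9.73 with shSYK_2, against 9.95, 9.85 and 9.97 with shLuc, and neither change was called. The HL-60 arrays read 9.69 and 9.70 with shSYK_1 and 9.38 and 9.49 with shSYK_2, against 9.74, 9.71 and 9.74 with shLuc, and only the fall of 0.29 with shSYK_2 was called. That call was lost without replicate 1 (-0.24, limma adjusted p = 0.0899). CDC7 likewise fell with shSYK_2 in MOLM-14 (-0.60) and U937 (-0.79) and changed by -0.09 and 0.01 there with shSYK_1, neither of which was called.

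The 6 subunits of the MCM ring, the helicase motor, all fell in 4 of the 6 comparisons. All 6 fell in the average, from -0.34 for MCM6 to -0.63 for MCM2, all 6 fell in MOLM-14 with each hairpin, and all 6 fell in HL-60 with shSYK_1. In U937 all 6 fell with shSYK_2, from -0.71 for MCM6 to -1.51 for MCM4, while only MCM2 fell with shSYK_1. MCM2 read 8.47 and 8.77 with shSYK_1 and 9.25 and 9.10 with shSYK_2 in MOLM-14, against 9.66, 9.65 and 9.60 with shLuc. The U937 arrays read 9.20 and 9.01 with shSYK_1 and 8.25 and 8.22 with shSYK_2, against 9.44, 9.56 and 9.42 with shLuc. In HL-60 it read 9.52 and 9.49 with shSYK_1 and 9.90 and 10.04 with shSYK_2, against 10.15, 10.02 and 10.03 with shLuc. The MCM2 difference between hairpins, shSYK_2 minus shSYK_1, was 0.56 in MOLM-14, 0.47 in HL-60 and -0.87 in U937, all called, and the HL-60 shSYK_2 arrays overlapped shLuc. In HL-60 with shSYK_2, only MCM3 fell (-0.21) among the 6 on their brightest probe sets, and without replicate 1 its change of -0.17 was not called. A second, dimmer probe set of MCM7 was lower with HL-60 shSYK_2 (-0.31, limma adjusted p = 0.00584 in a fit of all probe sets). The change of -0.06 on the brighter set of MCM7 was not called.

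CDC45, the GINS subunits and MCM10 convert the loaded ring into a moving helicase. All 5 measured genes fell in the average, with a median of -0.61, the lowest of the 11 subcomplexes. GINS1 was lower in each of the 6 comparisons, in HL-60 with shSYK_2 also without replicate 1 (-0.73). It read 8.15 and 8.24 with shSYK_1 and 7.88 and 7.91 with shSYK_2 in MOLM-14, against 8.996, 8.90 and 8.99 with shLuc. In U937 it read 9.08 and 9.11 with shSYK_1 and 7.86 and 7.76 with shSYK_2, against 9.40, 9.48 and 9.37 with shLuc. Values in HL-60 were 8.19 and 8.19 with shSYK_1 and 8.17 and 8.24 with shSYK_2, against 8.94, 8.97 and 9.0 with shLuc. No SYK hairpin array reached the shLuc range of its line, and GINS1 stood between 32.9% (U937 shSYK_2) and 80.0% of shLuc (U937 shSYK_1). Its average change was -0.88 ± 0.03 (SE; limma adjusted p = 4.34e-12). MCM10, which recruits polymerase alpha to the fork, fell by 0.83 and 0.94 in MOLM-14 with shSYK_1 and shSYK_2, by 1.56 in U937 with shSYK_2, where it was as dim, and by 0.59 and 0.50 in HL-60. On its brightest probe set GINS3 was called in 1 of the 6 comparisons, U937 with shSYK_2 (-0.83). Its changes of 0.12 with each hairpin in HL-60 were not called. A second, dimmer probe set of GINS3 was also lower in MOLM-14 with shSYK_1 (-0.33, limma adjusted p = 0.0176 in a fit of all probe sets).

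All 5 subunits of the RFC clamp loader fell in the average, and RFC5 had the largest average change of all 59 genes. RFC5 read 7.02 and 6.98 with shSYK_1 and 7.64 and 7.64 with shSYK_2 in MOLM-14, against 8.67, 8.54 and 8.43 with shLuc. Values in U937 were 6.05 and 5.79 with shSYK_1 and 5.94 and 5.62 with shSYK_2, against 7.13, 6.997 and 7.12 with shLuc. The HL-60 arrays read 7.48 and 7.49 with shSYK_1 and 7.65 and 8.16 with shSYK_2, against 8.52, 8.57 and 8.52 with shLuc. RFC5 was below shLuc on all SYK hairpin arrays, and in U937 it fell by 1.16 with shSYK_1 and 1.30 with the other hairpin. There shSYK_2 minus shSYK_1 was -0.14 (95% interval -0.43 to 0.15), which was not called. The average change was -1.10 ± 0.06 (SE; limma adjusted p = 8.22e-10), to 46.6% of shLuc. RFC1, RFC2, RFC3 and RFC4 had average changes of -0.26 to -0.31. Without replicate 1 of HL-60 shSYK_2 the RFC5 change there was -0.38 in place of -0.64 and was not called (limma adjusted p = 0.0599). A second, dimmer probe set of RFC5 changed by -1.003.

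RPA binds single-stranded DNA and PCNA is the sliding clamp of the polymerases. All 4 genes fell in the average, with changes of -0.85 for RPA2, -0.22 for RPA1, -0.14 for RPA3 and -0.13 for PCNA. RPA3 was called in 1 of the 6 comparisons, U937 with shSYK_2 (-0.75), and its highest change was 0.11. RPA2 read 7.57 and 7.84 with shSYK_1 and 7.98 and 7.89 with shSYK_2 in MOLM-14, against 8.66, 8.51 and 8.52 with shLuc. The U937 arrays read 8.12 and 8.07 with shSYK_1 and 7.44 and 7.41 with shSYK_2, against 8.94, 8.94 and 8.79 with shLuc. In HL-60 it read 8.58 and 8.48 with shSYK_1 and 8.39 and 8.48 with shSYK_2, against 9.16, 9.20 and 9.12 with shLuc. The groups did not overlap in any line, and RPA2 was called lower in each of the 6 comparisons, in HL-60 with shSYK_2 also without replicate 1 (-0.68). Its average change had an SE of 0.04 and a limma adjusted p of 1.21e-10. In U937 PCNA rose by 0.20 with shSYK_1 and fell by 0.72 with shSYK_2.

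**Figure D3:**
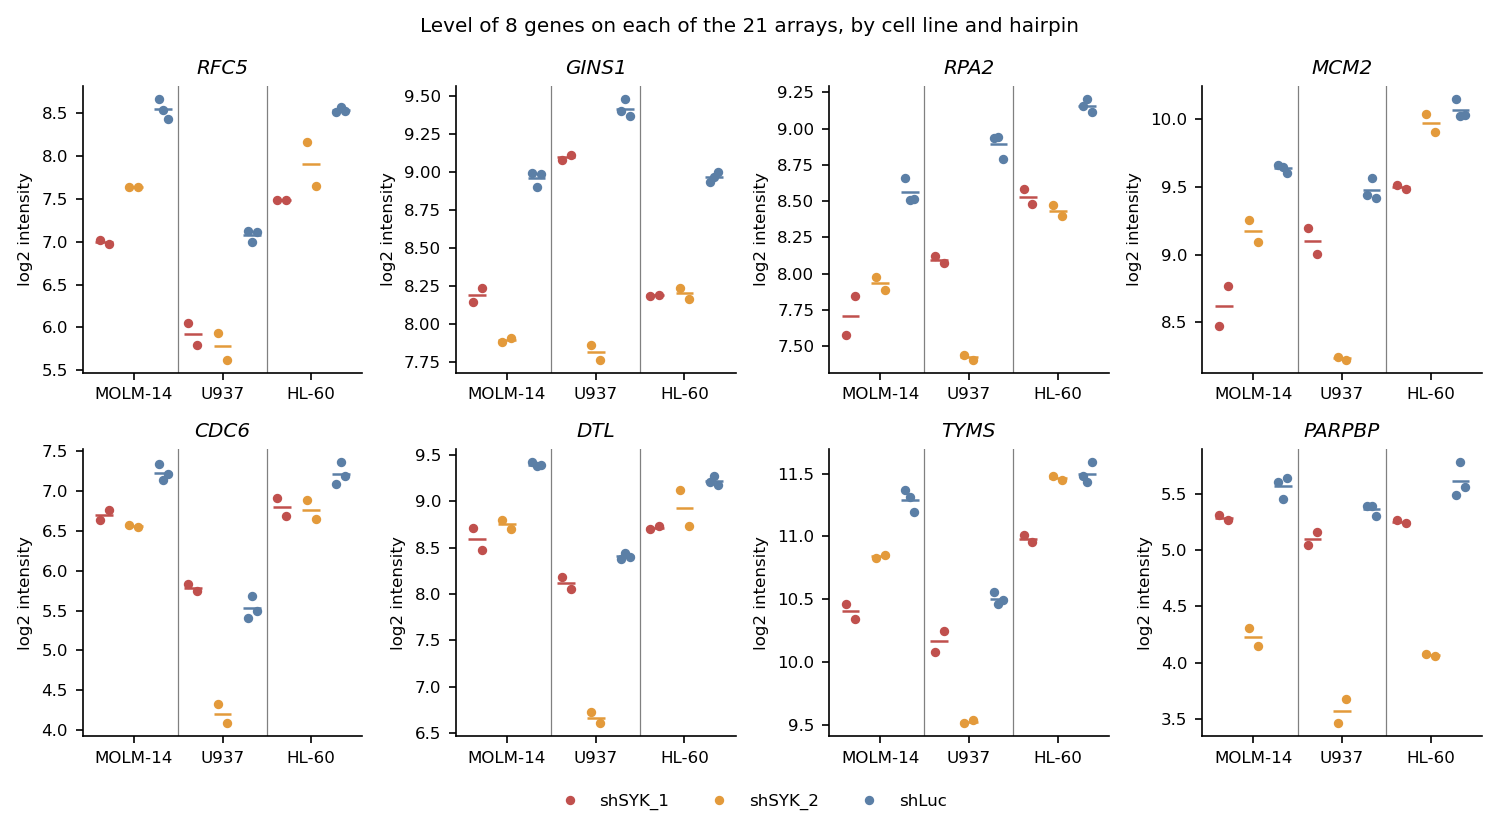
Log2 intensity of RFC5, GINS1, RPA2, MCM2, CDC6, DTL, TYMS and PARPBP on each array (points) with group means (bars), in the order shSYK_1, shSYK_2 and shLuc within each line and with a separate vertical scale for each gene. RFC5 and RPA2 fall with both hairpins in all 3 lines. Without replicate 1 of HL-60 shSYK_2, which leaves 1 array there, RFC5 changes by -0.38 and is not called. CDC6 and DTL drop in U937 with shSYK_2, and PARPBP drops with shSYK_2 in every line.

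Of the 10 polymerase and primase genes, 9 fell in the average, with a median of -0.27. POLE2, a subunit of the leading strand polymerase epsilon, changed most. It read 6.88 and 6.89 with shSYK_1 and 6.88 and 6.77 with shSYK_2 in MOLM-14, against 7.47, 7.38 and 7.52 with shLuc. In U937 it read 6.73 and 6.91 with shSYK_1 and 5.53 and 5.37 with shSYK_2, against 6.82, 6.94 and 6.89 with shLuc. Values in HL-60 were 7.57 and 7.59 with shSYK_1 and 7.40 and 7.72 with shSYK_2, against 8.01, 8.06 and 7.96 with shLuc. With U937 shSYK_1 POLE2 overlapped shLuc, and in the other 5 comparisons it was lower. The HL-60 shSYK_2 call of POLE2 was lost without replicate 1 (-0.29 in place of -0.45). Its average change was -0.60 ± 0.04 (SE; limma adjusted p = 2.17e-08). The catalytic subunits fell in U937 with shSYK_2 by 0.60 (POLA1), 0.86 (POLD1) and 0.32 (POLE). Of the 13 genes lower in U937 with shSYK_1, 5 were of this subcomplex, with changes of -0.27 to -0.38 in PRIM1, POLD1, POLD2, POLE and POLE3.

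The 4 genes of Okazaki fragment maturation remove RNA primers and seal the lagging strand, and all 4 fell in the average. DNA2, a nuclease and helicase, read 5.26 and 5.12 with shSYK_1 and 5.26 and 5.29 with shSYK_2 in MOLM-14, against 6.13, 5.68 and 5.81 with shLuc. Values in U937 were 4.73 and 5.10 with shSYK_1 and 4.24 and 4.001 with shSYK_2, against 5.21, 5.03 and 5.20 with shLuc. The HL-60 arrays read 5.30 and 5.24 with shSYK_1 and 4.41 and 5.29 with shSYK_2, against 5.58, 5.69 and 5.66 with shLuc. The average change was -0.62 ± 0.09 (SE; limma adjusted p = 4.43e-05). That SE was the largest among the 59 genes, and the low HL-60 array was replicate 1 of shSYK_2. Without it the change there was -0.35 in place of -0.79 and was not called. The flap nuclease FEN1 and the ligase LIG1 fell by 1.40 and 0.97 in U937 with shSYK_2, against changes of 0.23 and 0.15 with shSYK_1 that were not called. A second, dimmer probe set of FEN1 changed by -1.40 in U937 with shSYK_2. With shSYK_1 that set rose by 0.29 in U937 (limma adjusted p = 0.0353 in a fit of all probe sets). RNASEH2A, the catalytic subunit of the RNase H2 enzyme that cuts RNA paired with DNA, rose by 0.21 in HL-60 with shSYK_1.

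DTL targets CDT1 for destruction in S phase, TIMELESS and TIPIN hold the fork together, TOPBP1 helps to fire origins and CHAF1A and CHAF1B place histones on new DNA. All 6 fell in the average, in MOLM-14 with each hairpin and in U937 with shSYK_2, and none was called in U937 with shSYK_1. A second, dimmer probe set of TIMELESS changed by -0.03 in MOLM-14 and -0.15 in U937 with shSYK_2, neither of which was called. DTL read 8.71 and 8.48 with shSYK_1 and 8.80 and 8.70 with shSYK_2 in MOLM-14, against 9.42, 9.38 and 9.39 with shLuc. The U937 arrays read 8.19 and 8.06 with shSYK_1 and 6.72 and 6.60 with shSYK_2, against 8.38, 8.44 and 8.40 with shLuc. In HL-60 it read 8.70 and 8.73 with shSYK_1 and 8.73 and 9.12 with shSYK_2, against 9.21, 9.27 and 9.17 with shLuc. DTL with U937 shSYK_2 stood at 29.9% of shLuc (log2 change -1.74 ± 0.10 SE, limma adjusted p = 3.56e-09). In HL-60 with shSYK_2 DTL changed by -0.29, and by -0.09 without replicate 1, where the call was lost. CHAF1A and CHAF1B, which work in a complex, fell by 1.36 and 1.32 in U937 with shSYK_2, CHAF1B to such a dim level. In HL-60, averaged over the hairpins, CHAF1A fell by 0.55 and the change of CHAF1B (-0.17) was not called.

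Of the 5 nucleotide enzymes, 4 fell in the average, with a median of -0.19. Thymidylate synthase (TYMS), which makes dTMP and is the target of fluorouracil, read 10.46 and 10.35 with shSYK_1 and 10.83 and 10.85 with shSYK_2 in MOLM-14, against 11.37, 11.31 and 11.20 with shLuc. In U937 it read 10.08 and 10.25 with shSYK_1 and 9.52 and 9.54 with shSYK_2, against 10.56, 10.46 and 10.49 with shLuc. Values in HL-60 were 11.01 and 10.95 with shSYK_1 and 11.45 and 11.48 with shSYK_2, against 11.48, 11.43 and 11.59 with shLuc. TYMS was lower in 5 comparisons and overlapped shLuc in HL-60 with shSYK_2. Its average change was -0.53 ± 0.04 (SE; limma adjusted p = 6.56e-09). DUT, which clears dUTP, changed by -0.29 and RRM1, the large subunit of ribonucleotide reductase, by -0.19.

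Thymidine kinase TK1 rose in HL-60 while it fell in U937 with shSYK_2, there to a level no brighter than the median probe set. The HL-60 arrays read 6.48 and 6.60 with shSYK_1 and 6.33 and 6.35 with shSYK_2, against 6.12, 5.88 and 5.82 with shLuc. Values in U937 were 5.35 and 5.12 with shSYK_1 and 3.89 and 3.95 with shSYK_2, against 4.99, 5.08 and 4.95 with shLuc. In MOLM-14 it read 5.97 and 6.14 with shSYK_1 and 5.78 and 5.93 with shSYK_2, against 6.40, 6.52 and 6.10 with shLuc. All 4 HL-60 SYK hairpin arrays were above all 3 shLuc arrays, with changes of 0.60 and 0.40 (limma adjusted p = 0.000995 and 0.0233). Without replicate 1 of HL-60 shSYK_2 the change with that hairpin was 0.41 and was not called (limma adjusted p = 0.105). The response in MOLM-14 minus that in HL-60 was -0.89, and U937 minus HL-60 was -0.93, both called.

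RRM2, the small subunit that limits ribonucleotide reductase, was read by 2 probe sets that disagreed. On the brighter one RRM2 read 10.97 and 10.88 with shSYK_1 and 9.22 and 9.23 with shSYK_2 in U937, against 10.30, 10.28 and 10.21 with shLuc, a rise of 0.66 and a fall of 1.04. On the dimmer one it read 9.47 and 9.60 with shSYK_1 and 9.05 and 9.04 with shSYK_2 in U937, against 9.96, 10.10 and 9.96 with shLuc, so that both hairpins were lower. Among the 6 comparisons the probe sets gave opposite called directions for U937 shSYK_1, 0.66 and -0.48 (limma adjusted p = 2.83e-06 and 0.000398 in a fit of all 19724 probe sets). In MOLM-14 shSYK_1 changed the brighter set by -0.29 and the dimmer one by -1.43. In HL-60 it changed the brighter set by 0.06, which was not called, and the dimmer one by -1.24. With shSYK_2 the brighter and the dimmer set changed by -0.41 and -0.32 in MOLM-14 and by -1.04 and -0.97 in U937. The HL-60 changes with shSYK_2, -0.02 and 0.10, were not called. Over the 3 lines, RRM2 changed by -0.17 on the brighter and -0.72 on the dimmer set with both hairpins, but by 0.14 and -1.05 with shSYK_1, which were called in opposite directions (limma adjusted p = 0.00745 and 1.85e-11). The difference between hairpins over the lines was -0.63 on the brighter and 0.65 on the dimmer set, again called in opposite directions. What part of the transcript each set reads was not examined, and the direction of RRM2 with shSYK_1 and between the hairpins is uncertain. Among the 21 genes with a second probe set, this was the only case of opposite calls over the 6 comparisons. Over all 27 further probe sets, 20 were lower in the average, none was higher, and the 3 with the opposite sign (dim sets of ORC5, RFC1 and TYMS) were not called.

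**Figure D4:**
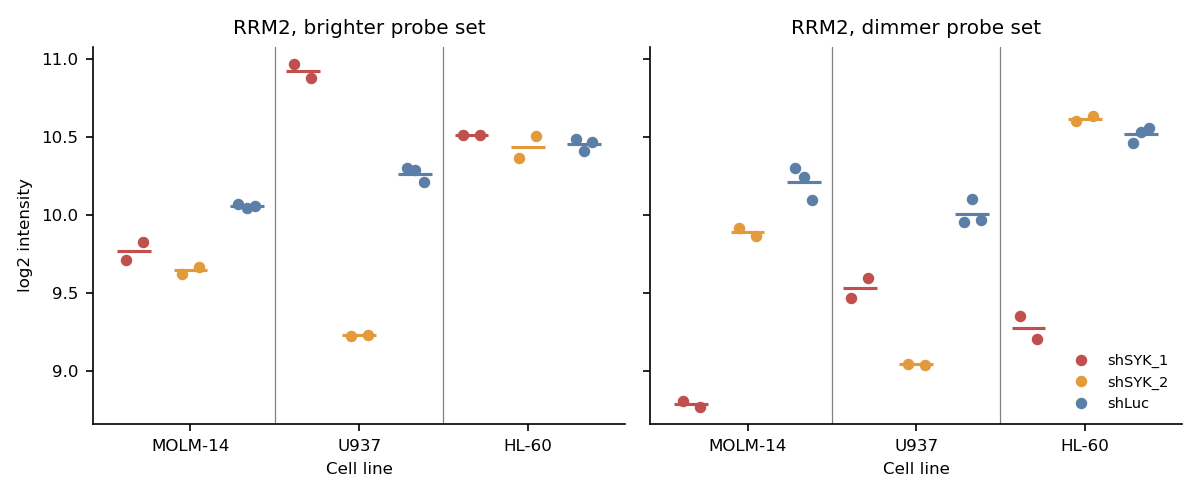
Log2 intensity of RRM2 on each array from its brighter (left) and dimmer (right) probe set, as points with group means. With shSYK_1 the brighter set rises in U937 by 0.66 while the dimmer set changes by -0.48 there, by -1.43 in MOLM-14 and by -1.24 in HL-60.

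The repair genes UNG, EXO1 and PARPBP all fell in the average. PARPBP, which restrains homologous recombination, read 5.31 and 5.26 with shSYK_1 and 4.30 and 4.14 with shSYK_2 in MOLM-14, against 5.60, 5.45 and 5.64 with shLuc. The U937 arrays read 5.04 and 5.16 with shSYK_1 and 3.46 and 3.68 with shSYK_2, against 5.39, 5.38 and 5.30 with shLuc. In HL-60 it read 5.26 and 5.24 with shSYK_1 and 4.06 and 4.08 with shSYK_2, against 5.49, 5.78 and 5.56 with shLuc. On no shSYK_2 array did PARPBP reach its shSYK_1 level in the same line. With shSYK_2 PARPBP was no brighter than the median probe set in any line, so the size of its change is uncertain. The difference between the hairpins, averaged over lines, was -1.26 ± 0.06 (SE; limma adjusted p = 8.54e-11). UNG, which removes uracil from DNA, was higher with shSYK_2 than with shSYK_1 by 0.57 in MOLM-14 and 0.67 in HL-60. It fell by 0.90 and 0.87 there with shSYK_1, against changes of -0.33 and -0.20 with shSYK_2, the last of which was not called.

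The hairpins were then compared directly, as shSYK_2 minus shSYK_1. In U937 47 genes were lower with shSYK_2 and 1, ORC5, was higher, where 23.0% of all genes were called in either direction. The median difference of the 59 genes was -0.78. By subcomplex, the median U937 change with shSYK_2 was -1.52 for CDC45, GINS and MCM10, -1.30 for the MCM ring, -1.28 for the fork regulators and -1.19 for the repair genes, and the smallest was -0.44 for ORC. With shSYK_1 in U937 the medians were -0.01 for CDC45, GINS and MCM10, -0.06 for the MCM ring, -0.22 for the polymerases and 0.15 for the nucleotide enzymes. In MOLM-14 7 genes were lower and 11 higher (25.9% of all genes in either direction), and in HL-60 4 were lower and 10 higher (22.2%). Over the 3 lines 37 were lower and 4 higher (35.7%). Called genes in either direction were thus 48 of 59 in U937, well above the share of all genes, and 18 and 14 of 59 in MOLM-14 and HL-60, near it. ORC5, RFC5, UNG and POLE3 were the 4 higher with shSYK_2 over the lines, by 0.29 to 0.36. The count in MOLM-14 was 11 without shSYK_1 replicate 1 in place of 18, and that in HL-60 was 7 and 8 without replicate 1 or 2 of shSYK_1 in place of 14. The HL-60 count was 0 with the doubtful array placed in shSYK_1, 6 with weights on the arrays and 6 in a fit of the HL-60 arrays alone, so the HL-60 count depends on the label of that array and on the fit.

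A test added after this pattern was seen set the U937 difference between hairpins against the mean of the differences in MOLM-14 and HL-60. It called 46 of the 59 genes, all lower in U937, where 15.4% of all genes were called in either direction. The largest such differences were those of DTL (-1.64), CDC45 (-1.62), FEN1 (-1.60), RRM2 on its brighter probe set (-1.60) and MCM4 (-1.56). The same test gave 0.01 for SYK (95% interval -0.22 to 0.24), which was not called. Without the 7 U937 arrays, the average change over MOLM-14 and HL-60 had a median of -0.36 with shSYK_1 and -0.26 with shSYK_2.

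**Figure D5:**
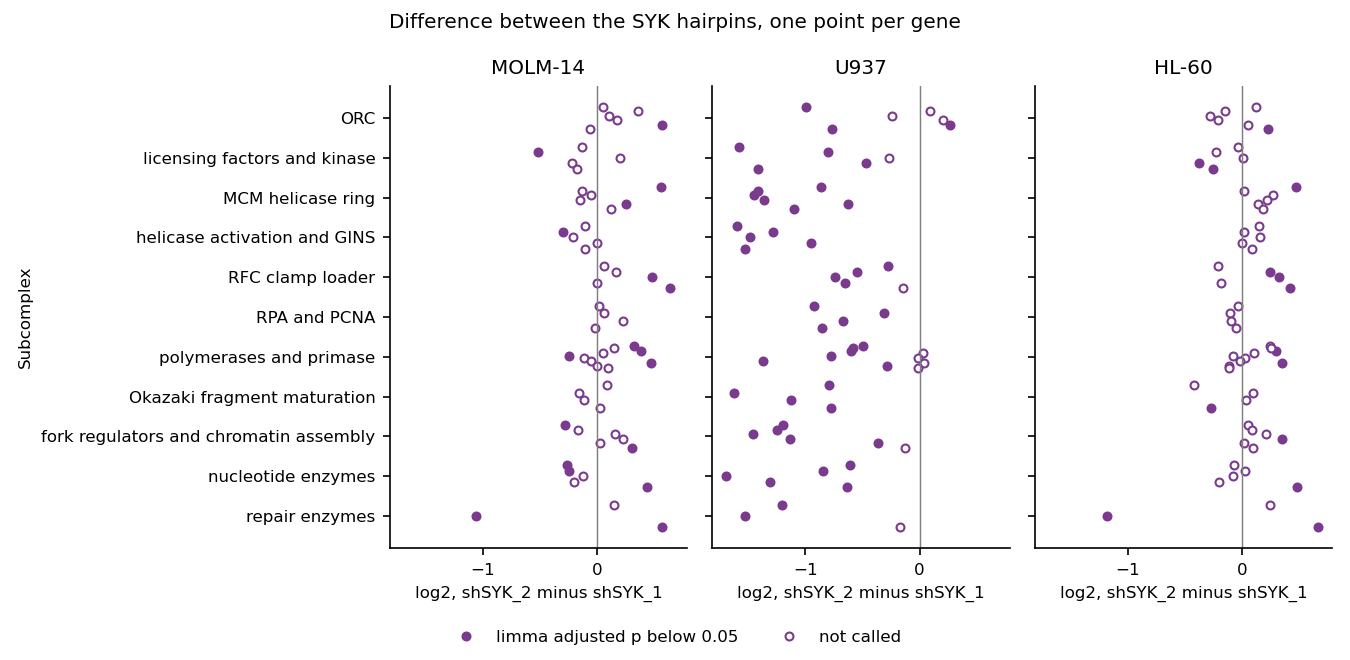
Log2 difference between shSYK_2 and shSYK_1 for each gene (points), by subcomplex, in MOLM-14, U937 and HL-60; filled points have a limma adjusted p below 0.05. The points lie on both sides of 0 in MOLM-14 and HL-60, with 18 and 14 called and PARPBP the lowest in each line. In U937 they lie mostly between -1.7 and 0, and 47 are called lower.

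Lines were compared for the response averaged over both hairpins. With both hairpins 51 genes were lower in MOLM-14 (9.49% of all genes), 53 in U937 (7.58%) and 29 in HL-60 (13.1%), with medians of -0.41, -0.43 and -0.20. The response in MOLM-14 differed from that in U937 for 2 genes, RPA2 (0.39) and UNG (-0.36), where 3.70% of all genes were called, and this count ranged from 0 to 5 as single arrays were left out and was 0 with the doubtful HL-60 array placed in shSYK_1. The U937 average joins hairpins that differed, and a count this low does not show that the lines respond alike. The response was lower in MOLM-14 than in HL-60 for 18 genes and higher for 2, where 8.48% of all genes were called. It was lower in U937 than in HL-60 for 25 genes and higher for none, where 6.88% were called. Among the genes with weaker falls in HL-60, MCM2 changed by -0.74 in MOLM-14 and -0.81 in U937, against -0.33 in HL-60. CHAF1B changed by -0.73 in MOLM-14 and -0.70 in U937, against -0.17 in HL-60. The TIMELESS changes were -0.48 for MOLM-14 and -0.68 for U937, against -0.01 for HL-60, on its brighter probe set. On a second, dimmer set the U937 changes were 0.13 with shSYK_1 and -0.15 with shSYK_2, neither called. The HL-60 changes of that set, -0.07 and -0.19, were not called either. In MOLM-14 it changed by -0.375 with shSYK_1, which was called, and by -0.03 with shSYK_2, which was not. The line difference of TIMELESS thus rests on the brighter set and was not tested on the dimmer one. The count for MOLM-14 against HL-60 was 13 in place of 20 without MOLM-14 shLuc replicate 1 or HL-60 shLuc replicate 3, and 27 without HL-60 shSYK_2 replicate 1. It was 12 with that array placed in shSYK_1 and 31 with a pseudocount of 16, and the count for U937 against HL-60 was 20 with the array placed so.

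The lines also differed in the level of these genes without a SYK hairpin. In shLuc cultures 37 genes were higher and 14 lower in MOLM-14 than in U937 (52.1% of all genes called in either direction), with a median difference of 0.42. Between U937 and HL-60, 40 were lower and 6 higher in U937 (52.8% of all genes), with a median of -0.46. Between MOLM-14 and HL-60, 23 were lower and 14 higher in MOLM-14 (49.4% of all genes), with a median of -0.10. U937 had the lowest shLuc level of the lines for 40 of the 59 genes and HL-60 the highest for 28. Large differences included U937 minus HL-60 for CDC45 (-1.995), CDC6 (-1.69) and ORC6 (-1.55) and MOLM-14 minus U937 for MCM10 (2.54). ORC5 ran the other way, at -1.21 for MOLM-14 minus U937. With each array centred on its median, the median of all genes was -0.17 for MOLM-14 minus HL-60 and -0.16 for U937 minus HL-60, against -0.06 and -0.05 as deposited, and the higher share of all calls was 32.7% and 35.7%, against 46.5% and 48.8%.

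Genes of the same pathways outside the 59 were counted next, over the average of lines and hairpins, in which 17.0% of all genes were lower and 17.1% higher. Of 22 other replication factors, 19 fell and 1 rose, with a median of -0.32. The largest falls were those of ATAD5 (-0.73 ± 0.05 SE), which unloads PCNA, and DSCC1 (-0.51 ± 0.04), a subunit of an alternative clamp loader, and the gene that rose was POLD4 (0.36 ± 0.05), a small subunit of polymerase delta. With U937 shSYK_1, 1 of the 22 fell (8.37% of all genes) and 2 rose (8.53%), counts near those shares. With U937 shSYK_2, 18 fell (7.92% of all genes) and 1 rose. Of 32 other enzymes of nucleotide supply, 22 fell and 5 rose, with a median of -0.19. The largest falls were those of DHODH (-0.44 ± 0.04), the mitochondrial enzyme of pyrimidine synthesis, and PRPS1 (-0.33 ± 0.03), which makes phosphoribosyl pyrophosphate, and the largest rises were those of CDA (0.28 ± 0.08), a salvage deaminase, and CMPK1 (0.26 ± 0.04), a pyrimidine nucleotide kinase. In U937 the median of this list was -0.15 with shSYK_1 and -0.16 with shSYK_2.

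Of 18 E2F and G1/S regulators, 8 fell and 3 rose in the same average, with a median of -0.09. The 3 of 18 that rose are near the 17.1% of all genes called higher. The falls were led by the E2F partners TFDP2 (-0.73 ± 0.06) and TFDP1 (-0.54 ± 0.03), and among those that rose were the kinase inhibitor CDKN1B (0.26 ± 0.05) and the pocket protein RBL2 (0.25 ± 0.04). The 21 genes with E2F letters in the promoter had a median average change of -0.40, against -0.28 for the 32 promoters without. In U937 with shSYK_2 the medians were -0.98 with the letters and -0.74 without, and in HL-60 with shSYK_2 they were -0.10 and -0.20. The gene with the largest average change, RFC5, was among those without a match.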

How the data were processed

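The authors deposited 1 table of 22277 probe sets as linear intensity values normalized by RMA, per the submitters' processing notes and the values (3.23 to 13025). What else was done is not given in the sources used here. RMA sets all arrays to 1 distribution of probe values, so a change in total RNA per cell is not seen. Values were taken to log2 with no pseudocount. Probe sets were named from the platform annotation: 19724 had 1 gene symbol, 568 several and 1923 none, and 62 were controls. The probe set with the highest mean log2 intensity stood for each of 12165 genes. limma 3.58.1 in R 4.3.3 fitted the 9 groups of 21 arrays (12 residual degrees of freedom), and p-values were Benjamini-Hochberg adjusted over all 12165 genes in each comparison, with calls at an adjusted p below 0.05. The script was tested on simulated data. All 59 genes may be named. Values of every array are given for the gene with the largest average change in each subcomplex, for genes called alike in all 6 comparisons, for genes called higher in an average over lines and for the 3 largest hairpin differences, and genes of other lists are limited to the 2 largest rises and falls. The genes and lists were chosen with earlier results of these data known. Replicate numbers did not pair samples: 18 correlations of same-numbered deviations lay between -0.21 and 0.09. The number of arrays limits precision, and depth does not apply.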

Additional observations from a re-analysis of the deposited data

Results flagged for a closer look

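Responses averaged over both hairpins were compared between lines by a direct test of the difference. Between MOLM-14 and U937, 2 of the 59 genes were called, a count near the 3.70% of all genes called. RPA2 (0.389) was among the 2. Between MOLM-14 and HL-60, 20 were called, where 8.48% of all genes were called. Those 20 included MCM2 (-0.411), TYMS (-0.393) and RRM2 on its brighter probe set (-0.371). That count was 12 with the doubtful HL-60 array placed in shSYK_1. Between U937 and HL-60, 25 were called, where 6.88% of all genes were called. Those 25 included DTL (-0.618), MCM2 (-0.476), RPA2 (-0.454) and TYMS (-0.383). A negative value means a lower response in the line named first.

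The difference between hairpins in U937 was tested against the mean of that difference in MOLM-14 and HL-60. This test was added after the hairpins were seen to differ. It called 46 of the 59 genes, where 15.4% of all genes were called. The genes with values on every array differed by -1.643 for DTL, -1.596 for RRM2, -1.499 for CDC6 and -1.38 for MCM2. POLE2 differed by -1.334, GMNN by -1.202, GINS1 by -1.14 and TYMS by -1.099. RPA2 differed by -0.738, RFC5 by -0.674 and PARPBP by -0.408. For RRM2 the dimmer probe set gave a hairpin difference of -0.49 in U937, against 1.10 in MOLM-14 and 1.34 in HL-60 (a difference between lines not tested for that set).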

How the results depend on the processing

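Of 1593 values recomputed under alternatives, 1511 kept their direction and side of the threshold, or stayed within 1.5 times of a count or 1 replicate SD of a median. Named gene changes kept theirs in 492 of 493, and the exception was the RRM2 hairpin difference over the lines, 0.01 when its probe sets were averaged (limma adjusted p = 0.868) in place of -0.63, since the sets oppose each other. The response difference of MOLM-14 and U937 (2 genes) was 5 with quantile normalization, 7 with a pseudocount of 16, 7 without the dimmest 40% of genes, 5 with weights on the arrays, 6 with a trended, robust prior, 0 with the replicate block and 0 with the doubtful HL-60 array placed in shSYK_1. That of MOLM-14 and HL-60 (20) was 31 with the pseudocount, 3 with the block and 12 with the array placed so, and that of U937 and HL-60 (25) was 9 with the block. In HL-60, shSYK_2 (22 lower) gave 12 with weights, 10 with each line fitted alone, 12 with the block and 5 with the array placed so. There shSYK_1 (30) gave 18 alone and 18 with the block, both hairpins (29) gave 18 alone, 17 with the block and 17 with the array placed so, and the hairpin difference (14) gave 6 with weights, 6 alone, 9 with the block and 0 with the array placed so. U937 shSYK_1 (13) gave 8 with the block. The fixed block uses up residual degrees of freedom, and the other causes were not tested.

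Asking also for a change of at least 0.5 left 26 and 19 lower genes for shSYK_1 and shSYK_2 in MOLM-14, 3 for shSYK_1 in U937, 10 and 7 in HL-60, and 7, 20 and 15 for shSYK_1, shSYK_2 and both over the lines. It left 20, 25 and 8 for both hairpins within MOLM-14, U937 and HL-60 alone, with 12, 6 and 2 hairpin differences over the lines, in MOLM-14 and in HL-60. It left 0, 3 and 8 response differences (MOLM-14 against U937, MOLM-14 against HL-60, U937 against HL-60) and 31, 19 and 29 differences in shLuc level in the same order. The share of all genes that met this stricter rule was not counted, so these counts cannot be set against all genes.

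Leaving out single arrays gave 39 to 48 and 31 to 48 for shSYK_1 and shSYK_2 in MOLM-14, 8 to 15 and 52 to 55 in U937, and 22 to 32 and 9 to 27 in HL-60. It gave 55 to 57 for both hairpins over the lines, and 11 to 19, 42 to 49 and 7 to 19 for the hairpin difference in MOLM-14, U937 and HL-60. Response differences ranged over 0 to 5, 13 to 27 and 20 to 28 in the order above, and the added test over 42 to 48. With each array centred on its median, the higher share of all calls was 34.1% in place of 46.8% for HL-60 shSYK_2, and 26 of the 59 genes were lower there.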
